A study of Homo sapiens with 3 samples.

Results

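The APOBEC3 genes are a human family of 7 cytidine deaminase genes that lie side by side on chromosome 22, and the mRNA level of each was followed in the human liver cancer cell line HepG2, in its metformin-resistant derivative HepG2/metR, and in HepG2/metR exposed to oxamate. The members were taken by gene symbol, 7 of the 25270 symbols in the files, and all 7 were found. The family was selected on the level of 1 member, APOBEC3B, which was chosen by its rise in HepG2/metR cells and its fall with oxamate, so these values of APOBEC3B are a description and support nothing by themselves. The parental culture (HepG2/wild) had no treatment, the HepG2/metR culture was what survived more than 5 months of metformin, a complex I inhibitor, and the third culture was HepG2/metR given 40 mM oxamate, a lactate dehydrogenase inhibitor, for 24 h. The paper gives the same medium with serum for its cell lines. It does not say whether metformin was in the medium of the HepG2/metR cultures when RNA was taken. The study used them to ask which genes respond to lactate. Total RNA was sequenced from 1 library per condition (n = 1), so differences are given without p-values and could not be checked against replicates.

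APOBEC3 enzymes turn cytosine into uracil in single-stranded DNA. They act against retroviruses, endogenous retroelements and hepatitis B virus, and several are induced by interferon. APOBEC3A, APOBEC3C and APOBEC3H carry a single zinc-binding deaminase domain, while APOBEC3B, APOBEC3D, APOBEC3F and APOBEC3G carry a pair. APOBEC3B is the member known for its place in the nucleus and for mutating tumor genomes. It is also known for being induced through NF-kB and held down by the DREAM complex, a repressor built on E2F and RB-family proteins.

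The authors deposited 1 value per symbol and library, of the form log2(FPKM + 1), where FPKM is fragments per kilobase of transcript, scaled to sequencing depth. Differences were taken between these values, a scale that understates the change of low genes, and levels are given as FPKM, which corrects for length. FPKM summed to 562382 in the parental library, 534646 in HepG2/metR and 473773 with oxamate. From the lowest values, in which single fragments can be seen, the libraries were estimated to hold 22900000, 27300000 and 28000000 fragments in the same order. Ratios of FPKM are given with an exact Clopper-Pearson 95% interval computed from these estimated fragments, which covers counting error only. A gene was counted as changed at 2-fold between HepG2/metR and parental cells and at 1.5-fold with oxamate, the thresholds of the study, if its mean over the 3 libraries was at least 1 FPKM, as it was for 12210 genes. Liver markers did not follow the label of the treated cultures. Albumin was listed at 9206 FPKM in parental cells, 0.747 in HepG2/metR and 0.617 with oxamate, and all 9 hepatocyte markers examined fell by 2-fold or more in HepG2/metR cells, their summed level going from 29814 to 13.9 and 11.1 FPKM. Every comparison with parental HepG2 is therefore one between cultures that differ widely, and metformin selection and other differences between the cultures cannot be told apart.

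APOBEC3C and APOBEC3B were the members with the most mRNA in every library. APOBEC3B was at 6.31 FPKM in parental cells, 39.3 in HepG2/metR and 22.2 with oxamate. It was lowest in parental cells and highest in HepG2/metR cells, with the oxamate-treated culture in between. The level in HepG2/metR was 6.22 times that in parental cells (95% interval 5.47 to 7.10), a difference of 2.46 in log2(FPKM + 1). With oxamate the level was 1.77 times lower than in untreated HepG2/metR cells (95% interval 1.64 to 1.90), a difference of -0.79. The oxamate-treated level was still 3.52 times the parental one (95% interval 3.08 to 4.04). These ratios rest on an estimated 267, 1974 and 1149 fragments in the same order of libraries. These are bulk libraries, in which a smaller share of cells expressing a gene and less of its mRNA per cell cannot be told apart. Among the 12210 genes kept, 95.1% had a difference no larger than that of APOBEC3B between HepG2/metR and parental cells, and 1.23% a difference as low as its own, or lower, with oxamate. The fall passed the threshold of 0.58, which is 1.5-fold, by 0.21.

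APOBEC3C, a weak single-domain deaminase that is expressed in many cell types, was at 24.0 FPKM in parental cells, 53 in HepG2/metR and 46.1 with oxamate. Parental cells were the low culture, and the others lay close together. The HepG2/metR level was 2.21 times the parental one (95% interval 2.09 to 2.35), a difference of 1.11 that passed the 2-fold threshold of 1 by 0.11. With oxamate APOBEC3C differed by -0.20, short of 0.58. APOBEC3C thus stayed the most abundant member, but its lead over APOBEC3B went from 3.80 times in parental cells to 1.35 times in HepG2/metR and 2.08 times with oxamate.

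APOBEC3G, the double-domain deaminase known for restricting HIV, was at 0.505 FPKM in parental cells, 4.13 in HepG2/metR and 5.23 with oxamate. It was low in parental cells and higher in both HepG2/metR cultures. The level in HepG2/metR was 8.18 times the parental one (95% interval 5.22 to 13.5), on an estimated 207 against 21 fragments, and differed by 1.77 in log2(FPKM + 1). With oxamate the level was 1.27 times that of untreated HepG2/metR cells (95% interval 1.05 to 1.53), a difference of 0.28 that did not reach the threshold and had the sign opposite to that of APOBEC3B.

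APOBEC3D, another double-domain member with antiretroviral activity, was listed at 0.0356 FPKM in parental cells, 2.21 in HepG2/metR and 2.65 with oxamate. The parental value corresponds to an estimated 2 fragments, against 152 and 188 in the other libraries. The ratio of HepG2/metR to parental cells was 62.0, with a 95% interval from 16.9 to 516, and the difference in log2(FPKM + 1) was 1.63. The gene was thus near the limit of detection in parental cells and present in both HepG2/metR cultures, which differed by 0.19.

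APOBEC3F, which also restricts retroviruses, was at 0.777 FPKM in parental cells, 1.39 in HepG2/metR and 2.15 with oxamate. Parental cells were again lowest, and the oxamate-treated culture was highest. Neither step passed its threshold, with differences of 0.43 between HepG2/metR and parental cells and 0.40 with oxamate. As a ratio of FPKM the step with oxamate was 1.55 (95% interval 1.20 to 2.0), so that whether it reached 1.5-fold turned on the pseudocount of 1.

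APOBEC3H stayed under 1 FPKM in every library, at 0.197 in parental cells, 0.0819 in HepG2/metR and 0.552 with oxamate, from an estimated 5, 2 and 16 fragments. It encodes a single-domain restriction factor. The ratio of the oxamate-treated to the untreated HepG2/metR level was 6.75 with a 95% interval of 1.59 to 60.5, and that of parental to HepG2/metR cells was 2.40 with an interval of 0.393 to 25.2, so the order of the latter pair was not detectable at this depth. APOBEC3A, the member most typical of myeloid cells and interferon-treated keratinocytes, was listed at 0 in all 3 libraries, which at 3 fragments allows up to 0.0885 FPKM in the parental library, 0.0745 in HepG2/metR and 0.0724 with oxamate. The hybrid gene APOBEC3A_B and the antisense gene APOBEC3B-AS1 were also listed at 0 throughout.

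The RefSeq promoter table (GRCh38.p14) held 1 of the 7 members, APOBEC3H, and its window is the 1 shown for that reason. The level of this gene rests on few fragments, and it did not reach a mean of 1 FPKM. The window runs from 250 bases before to 50 bases after the annotated start, chr22:39096994-39097293 on the plus strand, and capitals mark the 1 motif match found.
APOBEC3H: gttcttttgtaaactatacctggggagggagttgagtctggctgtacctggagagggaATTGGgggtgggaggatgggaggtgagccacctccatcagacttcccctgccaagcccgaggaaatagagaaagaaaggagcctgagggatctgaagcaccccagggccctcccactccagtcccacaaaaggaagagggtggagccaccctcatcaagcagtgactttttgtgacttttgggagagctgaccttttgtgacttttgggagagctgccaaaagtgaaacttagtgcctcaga
On both strands the search covered CCAAT, the TATA motif TATAAA, the cell cycle homology region as TTTGAA or TTCGAA, E2F sites as TTTCCCGC, TTTGGCGC, TTTGCCGC or TTTCGCGC, the interferon gamma-activated site TTCNNNGAA, the interferon-stimulated response element as GAAA followed after any 2 bases by GAAA, and the NF-kB consensus by name. The match was CCAAT on the reverse strand, starting at -192 from the start site, and 34.6% of all 35116 windows held CCAAT. The other motifs had 0 matches in this window, against 11.5% of all windows for TATA, 16.4% for the cell cycle homology region, 3.31% for E2F, 7.66% for the gamma-activated site, 5.91% for NF-kB and 3.57% for the interferon-stimulated response element.

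Of the 7 members, 5 reached a mean of 1 FPKM. APOBEC3D, APOBEC3F and APOBEC3G did so only through the HepG2/metR libraries, so their place among the genes kept already implied a higher level there. Between parental and HepG2/metR cells 4 members rose by 2-fold or more, APOBEC3B, APOBEC3C, APOBEC3D and APOBEC3G, and 0 fell. Over all genes kept 16.6% were 2-fold higher and 17.6% 2-fold lower. With oxamate 1 member, APOBEC3B, was at least 1.5-fold lower and 0 were 1.5-fold higher, beside 3.82% and 4.30% of all genes kept. APOBEC3B was also the 1 member that passed both the rise and the fall, as 0.958% of the genes kept did, and it had been chosen for this. Compared with parental cells directly, the oxamate-treated culture had 3 members at least 2-fold higher, APOBEC3B, APOBEC3D and APOBEC3G, and 0 lower, beside 18.0% and 17.6% of all genes kept. The first and the second comparison share the HepG2/metR library, and the direct one shares a library with each, so none is independent of the others. When each library was scaled to the same total FPKM, the genes changed with oxamate went from 525 higher and 466 lower to 1187 higher and 192 lower, and APOBEC3B, at -0.63, still passed.

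Summed over the family, APOBEC3 mRNA was 31.8 FPKM in parental cells, 100.1 in HepG2/metR and 78.9 with oxamate. APOBEC3B made up 19.9% of this sum in parental cells, 39.3% in HepG2/metR and 28.2% with oxamate. APOBEC3C made up 75.4%, 52.9% and 58.4% in the same order. In the deposited values the lower sum with oxamate came from APOBEC3B and APOBEC3C. Each of the other detected members was listed higher in the oxamate-treated library than in untreated HepG2/metR cells. The part of APOBEC3C depended on the scaling, since its difference with oxamate ran from -0.21 to -0.01 over 4 other scalings.

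Because the members arose by duplication, fragments can be shared between them. Of the 75-base windows of the longest GENCODE release 29 coding transcript, 32.9% of those of APOBEC3B occurred in a transcript of another member, 22.7% in APOBEC3A. The shares were 17.8% for APOBEC3F, 14.7% for APOBEC3G, 11.5% for APOBEC3D, 0.255% for APOBEC3C and 0 for APOBEC3H. The share depends on the window length. For APOBEC3B it was 39.6% with 50 bases and 27.7% with 100, and for APOBEC3F 24.0% and 13.5%. How the authors' program divided shared fragments was not tested, and the levels of APOBEC3B, APOBEC3D, APOBEC3F and APOBEC3G are uncertain for that reason. For APOBEC3A, listed at 0, the share was 16.9% with 75 bases. APOBEC3B-AS1 overlaps the end of APOBEC3B in the RefSeq table, and without a stated strand setting reads of the pair cannot be told apart.

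In the order of RefSeq genes along the chromosome the 7 members follow each other from APOBEC3A to APOBEC3H without another protein-coding gene between them. The 5 genes before the cluster were GTPBP1, SUN2, DNAL4, NPTXR and CBX6, and the 5 after it CBX7, PDGFB, RPL3, SYNGR1 and TAB1. Differences between HepG2/metR and parental cells among these neighbours went in either direction. CBX7, a Polycomb subunit gene that adjoins APOBEC3H, went from 0.967 FPKM in parental cells to 4.36 in HepG2/metR and 4.09 with oxamate, and the synaptic vesicle gene SYNGR1 from 0.526 to 8.02 and 10.0. SUN2, a nuclear envelope gene, went from 29.2 to 11.0 and 10.1 FPKM, and NPTXR, a pentraxin receptor gene, from 6.84 to 1.79 and 3.0. CBX6, the Polycomb gene adjoining APOBEC3A, differed by 0.95, just under the threshold. Of the 10 neighbours 0 were 1.5-fold lower with oxamate, the lowest difference being -0.15 for PDGFB. Over all genes kept 3.82% were, so 0 of 10 does not set these neighbours apart from other genes.

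The genes whose pair of differences lay nearest to that of APOBEC3B, by Euclidean distance over the 3 libraries among genes kept, were STC1, RDM1, FLJ45513, NRGN, C8orf46, CARS, UBE2S, LFNG, KRT15 and LEPR, at distances from 0.149 to 0.288. Of these, 3 reached a mean of 5 FPKM. CARS, which encodes cysteinyl-tRNA synthetase, was at 15.3 FPKM in parental cells, 76.6 in HepG2/metR and 48.1 with oxamate. UBE2S, the ubiquitin-chain elongating enzyme of the anaphase-promoting complex, was at 20.1, 128 and 86.3 FPKM, and LFNG, a Notch glycosyltransferase, at 2.48, 15.1 and 9.09 FPKM. The nearest genes of the other members were C11orf68, TOM1L1 and MAP4K2 for APOBEC3C, MSANTD3, SH2D4A and MID2 for APOBEC3D, UBR1, ARNT2 and RRAGC for APOBEC3F, and PTPRR, PARVA and CRIM1 for APOBEC3G. These lay at distances from 0.006 to 0.029. The greater distances for APOBEC3B say nothing further about it, since it was chosen for a rise and a fall that 0.958% of the genes kept passed.

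Deaminases outside the family were compared next. APOBEC1 and APOBEC4 were listed at 0 in every library, and APOBEC2, the muscle member, at 0.0577, 0.238 and 0.164 FPKM in parental, HepG2/metR and oxamate-treated cells. A1CF, the RNA-binding cofactor with which APOBEC1 edits apolipoprotein B mRNA, was at 13.2 FPKM in parental cells and listed at 0 in both HepG2/metR libraries, and RBM47, another cofactor, at 1.86, 0.232 and 0.420 FPKM, with a mean under 1. The RNA-editing adenosine deaminase ADAR was at 35.5, 40.1 and 39.7 FPKM, and ADARB1 at 4.16, 7.65 and 12.3 FPKM, a rise of 0.62 with oxamate that passed 1.5-fold, while the brain-specific ADARB2 was listed at 0 throughout. CDA, the free cytidine deaminase of pyrimidine salvage, was at 3.38 FPKM in parental cells, 18.7 in HepG2/metR and 25.2 with oxamate, higher in both HepG2/metR cultures. DCTD, the deoxycytidylate deaminase, was at 43.3, 43.9 and 39.4 FPKM, and CDADC1 at 2.65, 2.91 and 3.28 FPKM, neither past a threshold.

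The 12 lists of related genes held 121 genes in all, of which 106 were kept. In HepG2/metR against parental cells 19 of these were higher and 14 lower, which became 24 and 10 under upper-quartile scaling. Over all genes kept 16.6% were higher (2021 genes) and 17.6% lower (2147 genes) without that scaling. With it, 2311 of all genes kept were higher and 1893 lower. With oxamate 2 were higher and 13 lower, beside 4.30% and 3.82% of all genes kept. The 2 and 13 became 10 and 7 after all libraries were set to 1 total. That scaling moved the median difference of all genes kept by oxamate from 0.02 to 0.17. Without rescaling, these shares of all genes kept apply beside the counts of each list below. Scaled to the same total, 1187 of the 12210 genes kept were higher with oxamate and 192 lower. These numbers apply beside the list counts given below for that scaling.

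Among 20 genes of E2F, RB and DREAM, the complexes that bind the APOBEC3B promoter, 3 rose in HepG2/metR cells by 2-fold or more and 1, E2F6, fell. E2F7, an atypical repressor, was at 2.32, 12.7 and 10.8 FPKM, E2F8 at 4.92, 11.8 and 7.65 FPKM and TFDP1, the dimer partner of E2F proteins, at 47.2, 95.5 and 76.0 FPKM. The median difference of the list was 0.06, beside 0.02 over all genes kept. With oxamate E2F1, E2F2 and MYBL2 were at least 1.5-fold lower and 0 were higher, with a median of -0.23 beside 0.02. E2F1 was at 28.4, 29.1 and 17.9 FPKM in parental, HepG2/metR and oxamate-treated cells, differences of 0.04 and -0.67. In its own assays the paper reported lower E2F1 protein and reporter activity with oxamate, and E2F1 mRNA unchanged in the conditions it examined. A link of the mRNA levels of this list to APOBEC3B was not tested. MYBL2, a partner of the activating form of the complex, was at 44.3, 35.6 and 18.8 FPKM. Scaled to the same total, 1 gene of this list was lower and 1 higher with oxamate, in place of 3 and 0. Among 13 proliferation genes, 2 were 2-fold higher in HepG2/metR, MCM6 and MKI67, and 1 was lower, PLK1. With oxamate 6 were lower and 0 higher, beside 3.82% and 4.30% of all genes kept, with a median of -0.54. When all libraries had the same total, 4 were lower. RRM2, the small subunit of ribonucleotide reductase, was at 113, 150 and 58.0 FPKM.

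NF-kB genes differed in both directions between the cultures. Of the 14 kept, 5 rose by 2-fold or more from parental to HepG2/metR cells and 4 fell, beside 16.6% and 17.6% of all genes kept. NFKB2, the precursor of p52 in the noncanonical pathway, was at 9.03 FPKM in parental cells, 35.4 in HepG2/metR and 27.2 with oxamate, and its partner RELB at 1.33, 4.32 and 4.90 FPKM. The target BIRC3 was at 0.212, 18.7 and 12.7 FPKM. The targets CCL20 and TNFAIP3 went the other way, CCL20 from 124 FPKM in parental cells to 0.109 in HepG2/metR, and TNFAIP3 from 10.0 to 0.832. With oxamate 2 of the 14, the chemokine genes CXCL1 and CXCL2, were at least 1.5-fold lower, CXCL1 at 12.3 and 5.10 FPKM and CXCL2 at 5.40 and 1.39 FPKM without and with oxamate. Scaled to the same total, 2 were lower and 1 higher, in place of 2 and 0.

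Interferon-response genes were 4 higher and 3 lower of 17 kept in HepG2/metR cells, beside 16.6% and 17.6% of all genes kept. Their median difference was 0.40. With oxamate 0 of 17 passed 1.5-fold in either direction, beside 4.30% of all genes kept higher and 3.82% lower. IFIT1 was at 0.488, 4.39 and 4.44 FPKM, IFIT2 at 0.0621, 2.36 and 3.80 FPKM and IRF7 at 0.0245, 2.56 and 2.46 FPKM, whereas ISG15 was at 23.5, 9.04 and 12.6 FPKM and IRF9 at 13.1, 4.37 and 5.26 FPKM. Scaled to the same total, 4 of the 17 were higher with oxamate, beside 1187 of the 12210 genes kept. CDKN1A, which encodes the cyclin-dependent kinase inhibitor p21, was at 48.4, 89.2 and 95.7 FPKM, and MDM2, a ubiquitin ligase gene, at 47.5, 65.7 and 86.6 FPKM, neither past a threshold.

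Enzymes that act on the product of deamination were examined as well. Of 16 genes for the repair of uracil and abasic sites, 0 passed 2-fold between HepG2/metR and parental cells, with a median difference of 0.34. Over all genes kept 16.6% were higher and 17.6% lower there. With oxamate 2, UNG and LIG1, were at least 1.5-fold lower, beside 3.82% of all genes kept, with a median of -0.34. UNG, the main uracil-DNA glycosylase, was at 57.1 FPKM in parental cells, 40.0 in HepG2/metR and 26.3 with oxamate. LIG1, the replicative DNA ligase, was at 20.5, 35.2 and 21.8 FPKM. HMCES, which shields abasic sites in single-stranded DNA, was at 28.5, 44.5 and 33.2 FPKM, with no threshold passed. Scaled to the same total, 0 of the 16 were lower with oxamate.

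Several members are highest in lymphocytes and myeloid cells, so leukocyte markers were examined in the same libraries. Of 10 markers, 2 reached 1 FPKM in parental cells, and 1, CORO1A, did in each HepG2/metR library. PTPRC, which encodes CD45, was at 0.0430, 0.0142 and 0.0139 FPKM in parental, HepG2/metR and oxamate-treated cells, and CD2 and MS4A1 were listed at 0 in all. The summed level of the 10 markers was 12.0, 3.44 and 2.34 FPKM. Most of it was CORO1A, at 8.97, 2.39 and 1.35 FPKM, and CD14, at 2.19, 0.715 and 0.607 FPKM. ITGAM was higher in both HepG2/metR libraries, at 0.00898, 0.156 and 0.167 FPKM. A part of leukocytes in the APOBEC3 levels was not tested. Of 7 fibroblast markers, 3 reached 1 FPKM in HepG2/metR cells. THY1 was at 0.0374, 53.3 and 48.5 FPKM, LUM at 0.172, 3.25 and 6.69 FPKM and PDGFRB at 3.43, 3.66 and 7.26 FPKM. COL1A1 was at 1.22, 0.494 and 0.677 FPKM, and COL1A2 at 0.141, 0.0129 and 0.0189 FPKM. COL3A1 was at 0.231, 0.191 and 0.267 FPKM, and DCN at 0.0612, 0.163 and 0.293 FPKM. Of 5 endothelial markers 0 reached 1 FPKM in any library. The fibroblast markers thus differed in both directions between parental and HepG2/metR cells, and their part in the result was not tested.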

How the data were processed

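The authors sequenced total RNA on an Illumina NextSeq, 1 library for each of the 3 conditions. Their deposited values are log2 numbers, read here as log2(FPKM + 1) because 100% of back-transformed values above 1 had at most 6 significant digits. The submitters' processing notes name STAR 2.5.1b, FastQC 0.11.5, Cufflinks 2.2.1 and hg19. The annotation and filters are not given in the sources used here. No further scaling was applied. The members, lists and thresholds were chosen with earlier results of these data known. Genes with a mean of at least 1 FPKM over the 3 libraries were kept.

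Depth was estimated from the most frequent low value of FPKM times length among genes with a single GENCODE transcript of at least 2000 bases. Independently of length, ratios of values under 0.15 FPKM made the HepG2/metR library 1.21 times and the oxamate-treated one 1.24 times as deep as the parental one. Fragments per member used its longest coding transcript, which may differ from the authors' gene model. RefSeq (GRCh38.p14) gave gene order and the promoter, and its build differs from hg19, so no other coordinates are given.

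Named were all members, the 10 genes nearest to APOBEC3B and 3 for each other member kept, neighbours 5 to each side, and up to 4 genes per list with the largest change past a threshold, with all genes of lists of 4 or fewer, except that some genes of the lists are not reported here. CXCL2, NFKB2, RELB, MYBL2, E2F1, E2F2, HMCES and ISG15 fall outside that rule and were named after their values were seen. So were the markers CD2, MS4A1, PTPRC, CD14, ITGAM, COL1A1, COL1A2, COL3A1 and DCN. The arithmetic of the fold calls was checked on simulated data, which says nothing of the error of real libraries. Scripts ran on scipy 1.17.1, numpy 2.4.6 and pandas 2.3.3 under Python 3.11.15, and plots on matplotlib 3.10.9.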

Additional observations from a re-analysis of the deposited data

How the results depend on the processing

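The difference of APOBEC3B ranged from 2.45 to 2.64 between HepG2/metR and parental cells and from -0.82 to -0.61 with oxamate over the alternatives of scaling and pseudocount, passing its threshold under each. A mean of at least 5 FPKM was reached by APOBEC3B (22.6) and APOBEC3C (41.0) alone. Of these 2 members, 2 were higher in HepG2/metR and 1, APOBEC3B, in oxamate-treated against parental cells. All genes kept at that mean were 1249 and 1315 higher there. With 2-fold in both comparisons, 0 members were lower with oxamate, beside 64 of the 12210 genes kept. With 1.5-fold in both, 5 members were higher in oxamate-treated than in parental cells, beside 3403 of the 12210. With a pseudocount of 0.1 or none, 1 member, APOBEC3F, was higher with oxamate, at 0.59 and 0.63, beside 1018 and 1111 of all genes kept. APOBEC3D then rose in HepG2/metR by 4.09 and 5.95 in place of 1.63. APOBEC3C passed 2-fold between oxamate-treated and parental cells at 1.16 when libraries were scaled to the same total, a scaling that moved the median of all genes kept to 0.22 there, and at 1.04 under upper-quartile scaling. The alternative without small-RNA genes, added after seeing the data, gave 1.17.

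Related genes higher in HepG2/metR numbered 36, and lower 22, with 1.5-fold in both comparisons, beside 3262 and 3301 of the 12210 genes kept. With a mean of at least 5 FPKM 9 were lower, beside 1428 of all genes at that mean. With oxamate those higher numbered 10 when scaled to the same total and 11 without small-RNA genes, beside 1187 and 1290 of all genes kept. They numbered 8 with a pseudocount of 0.1, 9 with none and 0 at 2-fold, beside 1018, 1111 and 66. Those lower numbered 7 under both scalings to a total, beside 192 and 173 of all genes kept, and 4 at 2-fold, beside 64. Of the 10 genes nearest to APOBEC3B, 3 were shared with the 10 found at a mean of at least 5 FPKM. No alternative reversed a change past its threshold among those run. With 1 library per condition, variation between cultures was not measured, and under about 1 FPKM the estimated fragments were too few to order the parental and HepG2/metR libraries for APOBEC3H.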

Other observations

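Other restriction factors differed in both directions between the cultures. Of 11 kept from a list of 14, 3 rose and 3 fell by 2-fold or more from parental to HepG2/metR cells, with a median difference of -0.11. With oxamate 0 passed 1.5-fold. When libraries were scaled to the same total, 2 were higher with oxamate, beside 1187 of the 12210 genes kept. IFI16, a nuclear DNA sensor, was at 0.0647 FPKM in parental cells, 16.2 in HepG2/metR and 19.8 with oxamate, and IFITM2, which blocks entry of viruses, at 65.3, 207 and 155 FPKM. MX2, which acts on the HIV capsid, was at 13.1 FPKM in parental cells and listed at 0 in both HepG2/metR libraries, and BST2, which tethers budding virions, was at 95, 28.1 and 29.3 FPKM.

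Of the 6 genes of translesion synthesis, by which polymerases copy past uracil-derived abasic sites and other lesions, POLH was at 3.91 FPKM in parental cells, 7.21 in HepG2/metR and 13.2 with oxamate, and it was the 1 gene of the list past 1.5-fold with oxamate. POLK was at 3.38, 10.3 and 13.2 FPKM and REV3L, the catalytic subunit of polymerase zeta, at 6.69, 2.56 and 3.16 FPKM.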
